A study of Mus musculus with 2 samples.

Results

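The 9 genes described here encode hydrolases anchored in the brush border of the small intestine and a structural protein of its microvilli. They were taken by symbol, each from the array features that carry exactly 1 gene symbol. The rule uses no threshold on a measured value, but the list was drawn up with earlier results of these data known. All 9 were found, each on 1 feature, among 28281 genes named in this way. Sis, Lct, Mgam and Treh encode disaccharidases, Anpep, Dpp4 and Enpep peptidases, Alpi an alkaline phosphatase, and Vil1 the actin-binding protein villin. The samples were regulatory innate lymphoid cells (ILCregs), as the labels name them, sorted from small intestine of 8-week-old mice with an IL-10-GFP knockin on the C57BL/6 strain. They form 1 group of 2 whole-transcript arrays, replicates 1 and 2, with no treatment and no other cell population to compare. No label says whether the replicates came from separate mice, so their spread may be technical. Post-sort purity was over 95% according to the design text, which names no gates.

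Absorptive enterocytes carry a dense layer of microvilli, the brush border, on the side that faces the gut lumen. Its enzymes do the last step of digestion: disaccharidases split sugars from milk and starch, peptidases trim peptides, and the products are taken up by transporters in the same membrane. Lactase is the sugar-splitting enzyme of suckling animals, whereas sucrase-isomaltase and trehalase are enzymes of weaned ones. These genes are textbook markers of enterocytes, but 3 of them also have a history as surface antigens of blood cells. Dpp4 is CD26 of T cells, Anpep is CD13 of myeloid cells, and Enpep is the BP-1 antigen of early B cells.

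The disaccharidase genes are the role group in which the members parted, so the DNA upstream of their starts is shown. RefSeq windows of GRCm38.p6 matched all 9 members, and 250 bases before each start were read, 5′ to 3′ on the strand of the gene. The Sis window lies at chr3:72967864-72968113 on the minus strand, the Lct window at chr1:128328319-128328568 on the minus strand, the Mgam window at chr6:40628581-40628830 on the plus strand and the Treh window at chr9:44672983-44673232 on the plus strand. Capitals mark, on either strand, the letters TTTAT (a core recognised by the factors Cdx1 and Cdx2), AGATAA (for factors of the GATA family) and CAAAGTCCA (for HNF4).
Sis: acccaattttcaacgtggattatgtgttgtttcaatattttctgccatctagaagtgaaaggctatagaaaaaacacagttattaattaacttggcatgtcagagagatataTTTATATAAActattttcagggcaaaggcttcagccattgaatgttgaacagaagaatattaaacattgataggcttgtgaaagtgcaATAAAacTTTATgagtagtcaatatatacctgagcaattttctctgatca
Lct: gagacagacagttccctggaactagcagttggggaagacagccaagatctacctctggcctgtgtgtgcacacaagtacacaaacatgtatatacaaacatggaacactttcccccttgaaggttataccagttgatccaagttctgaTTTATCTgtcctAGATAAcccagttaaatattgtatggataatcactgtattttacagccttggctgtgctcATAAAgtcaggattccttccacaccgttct
Mgam: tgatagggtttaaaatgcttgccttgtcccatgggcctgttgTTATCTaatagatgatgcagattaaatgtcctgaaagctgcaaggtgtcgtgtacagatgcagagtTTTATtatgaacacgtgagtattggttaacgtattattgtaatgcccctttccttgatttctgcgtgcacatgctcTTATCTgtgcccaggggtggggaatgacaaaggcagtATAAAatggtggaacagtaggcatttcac
Treh: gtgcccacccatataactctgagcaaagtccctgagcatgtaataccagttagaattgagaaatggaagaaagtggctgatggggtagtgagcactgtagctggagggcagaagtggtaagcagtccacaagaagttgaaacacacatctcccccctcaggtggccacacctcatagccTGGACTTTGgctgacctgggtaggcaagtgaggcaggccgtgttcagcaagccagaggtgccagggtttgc

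The Sis window held TTTAT at 4 places, and the windows of Lct and Mgam held TTTAT and AGATAA at 2 places each. In the Lct window a match to TTTAT and one to AGATAA overlapped. The Treh window held only CAAAGTCCA, from 71 to 63 bases before the start. Among the 9 members, TTTAT was present for 6, against 37.3% of all 32851 windows of this length, and AGATAA for 3 (Lct, Mgam and Dpp4), against 9.99%. CAAAGTCCA was present for Alpi and Treh, against 0.384% of windows. TTTAT is also contained in the reverse of a TATA box (TATAAA), so a match can be either. Such matches describe letters only and are no evidence of binding. The G and C content of the members' windows ran from 31.6% for Sis to 72.8% for Anpep, around a median of 52.4% over all windows.

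Signal was judged against 1678 genes for olfactory, vomeronasal and taste receptors, the reference genes, which are taken here not to be transcribed in these cells. The 95th percentile of the reference genes set the threshold, 6.74 in replicate 1 and 6.19 in replicate 2. Genes that exceeded it on both arrays are called above it. All signals are the deposited values, read as log2, and differences are on the same scale. In these terms 7 of the 9 members were above the threshold, against 31.7% of the 28281 named genes and 38.9% of the 16402 that encode proteins and lie outside the reference. The members' median signal was 9.19, against 5.43 over all named genes and 6.06 over the protein-coding ones. With 1 group of 2 arrays no difference between conditions could be tested, and given how the members were picked, the share above the threshold is a description. Probes differ in affinity, so signals do not order the genes by transcript number.

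**Figure D1:**
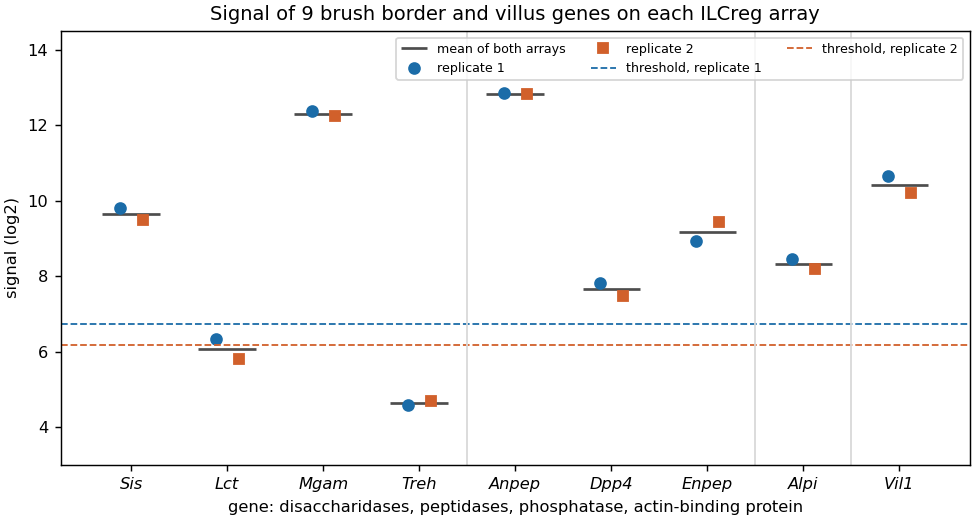
Log2 signal of each of the 9 genes on the array of replicate 1 (circles) and replicate 2 (squares), with their mean as a bar and the threshold of each array as a dashed line. Grey lines part the role groups, and Lct and Treh are the genes below both thresholds.

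Of the disaccharidase genes, Sis and Mgam lay above the threshold and Lct and Treh did not. Mgam, encoding maltase-glucoamylase, which releases glucose from starch fragments, had signals of 12.39 and 12.24 on the arrays of replicates 1 and 2. Both exceeded every one of the 1678 reference genes, and their mean of 12.32 ± 0.11 (SD, n = 2) was higher than the mean of 96.5% of named genes. Sis, encoding sucrase-isomaltase, read 9.81 and 9.49, a mean of 9.65 ± 0.23, and stood 3.07 and 3.30 above the thresholds. Only 2 reference genes on the first array and 1 on the second reached the Sis signal.

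Lct, the lactase gene, read 6.33 and 5.80, which was 0.42 and 0.39 below the thresholds. On the arrays of replicates 1 and 2, 7.93% and 7.69% of the reference genes were as high, so the Lct signal sat in the upper tail of the reference without clearing it. Its mean of 6.06 ± 0.37 had the largest SD among the 9 members. Treh, encoding trehalase, which splits the disaccharide trehalose, read 4.58 and 4.68, inside the bulk of the reference, where 48.3% and 33.4% of reference genes were at least as high. Its mean was 4.63 ± 0.07. The enzymes of weaned animals were therefore divided on these arrays, with Sis above the threshold and Treh at reference level. A signal below the threshold is not distinguishable from the reference and does not show that the transcript is absent.

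The 3 peptidase genes were all above the threshold. Anpep, encoding aminopeptidase N, which removes single residues from the amino end of peptides, had signals of 12.86 and 12.83. Its SD of 0.02 around a mean of 12.85 was the smallest among the members, and no reference gene reached it. Enpep, encoding aminopeptidase A, which removes acidic residues and cleaves angiotensin II, read 8.94 and 9.44, a mean of 9.19 ± 0.35, and stood 2.19 and 3.25 above the thresholds. Dpp4, encoding dipeptidyl peptidase 4, which inactivates incretin hormones, read 7.83 and 7.48, a mean of 7.66 ± 0.25. It was the member closest above the threshold, by 1.09 and 1.29, and 20 reference genes on the first array and 8 on the second were at least as high. When the threshold was set at the 99th percentile, 7.91 and 7.21, Dpp4 was below it on the array of replicate 1 and was no longer called.

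Alpi, an intestinal alkaline phosphatase that detoxifies bacterial lipopolysaccharide, read 8.46 and 8.20, a mean of 8.33 ± 0.19, and was 1.72 and 2.01 above the thresholds. Related genes of the family, of which Alppl2 and Alpl were added after the data were seen, were not called. Akp3, the duodenal enzyme, had a mean signal of 5.69 ± 0.06 and Alppl2 one of 4.31 ± 0.02, both below the threshold on each array. Alpl, the tissue-nonspecific enzyme, had a mean of 6.36 ± 0.18 and exceeded the threshold only on the array of replicate 2. Whether the features of these similar genes share signal was not tested. Vil1, encoding the protein that bundles and severs microvillus actin, read 10.65 and 10.22. Its mean of 10.43 ± 0.30 was above that of 92.8% of named genes, and no reference gene was as high on either array.

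**Figure D2:**
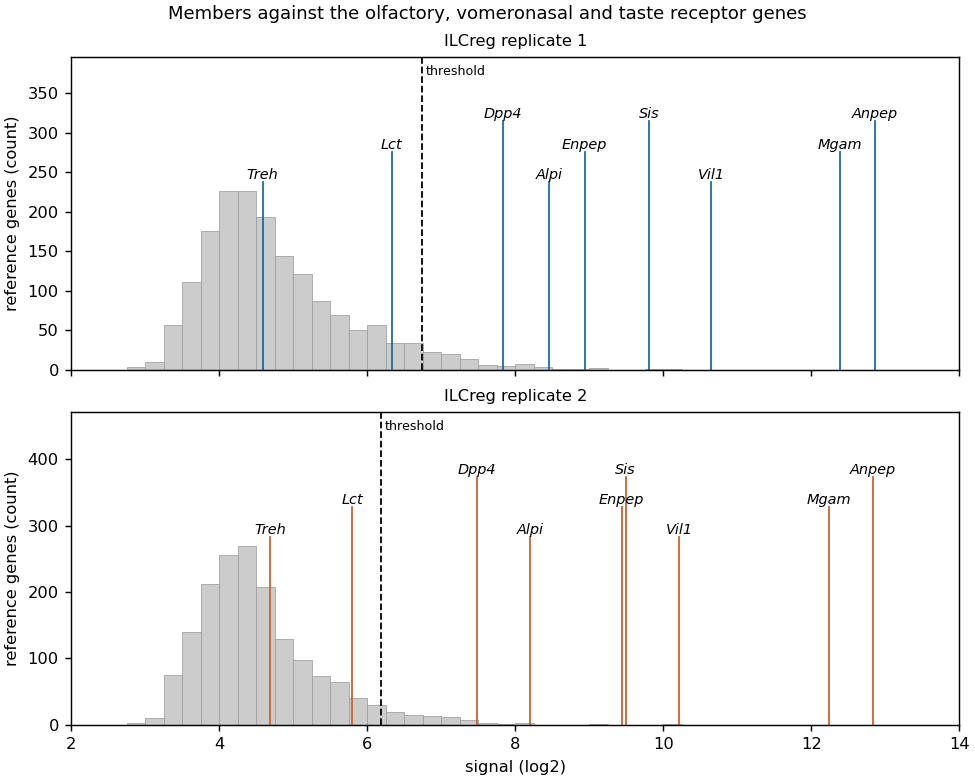
Histograms of log2 signal of the 1678 reference genes on each array (bins of 0.25, count on the vertical axis), with the threshold as a dashed line and each member as a labelled vertical line whose height has no meaning. Treh falls in the body of the reference, Lct in its upper tail below the threshold, and the other 7 genes to the right of it.

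None of the 9 members differed between the arrays by more than 2-fold after centring on the median of all named genes, as 4.16% of the genes above the threshold did. In replicate 1, 6 were higher, and in replicate 2 the other 3. Centred differences, replicate 2 minus replicate 1, ran from -0.48 for Lct to 0.55 for Enpep, and Vil1 was at -0.38, Dpp4 at -0.30, Sis at -0.27 and Alpi at -0.22. Mgam (-0.10), Treh (0.15) and Anpep (0.02) were closest to 0. The sign for Anpep turned to -0.03 without centring. The root mean square SD of all 9 members, Lct and Treh below the threshold included, was 0.24, against 0.34 for genes above the threshold. The members' median SD was however higher, 0.23 against 0.19. These differences rest on 1 array against 1 and have no replicate check.

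**Figure D3:**
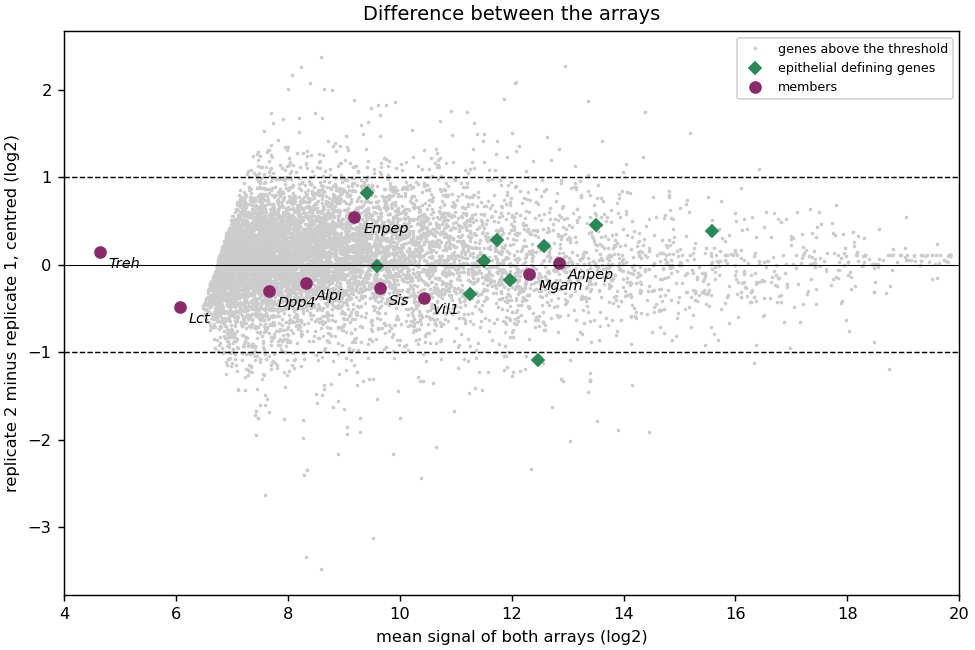
Difference between the arrays (replicate 2 minus replicate 1, less the median of all named genes, log2) against mean log2 signal, for genes above the threshold (grey), the 9 members (purple circles) and 10 epithelial defining genes (green diamonds). Dashed lines mark a 2-fold difference, and all 9 members lie between them, while 1 epithelial gene, Fabp1, lies below.

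Other genes of the brush border were read beside the share of 38.9% called among protein-coding genes. Of 16 further hydrolases listed, 10 were measured and 4 (40.0%) were above the threshold, near that share, with a median signal of 5.75. Enpp3, a nucleotide-cleaving ectoenzyme, was highest at 10.76 ± 0.48 and Tmprss15, the enteropeptidase that activates trypsinogen, lowest at 4.02 ± 0.09. Nt5e, the adenosine-forming CD73, differed most between the arrays, with 7.16 and 7.99, the first of which is below the 99th percentile of the reference. Among 17 measured genes of microvillus structure 11 (64.7%) were above the threshold, with a median of 7.79. Pls1, the actin bundler plastin 1, was highest at 10.28 ± 0.33, Espn, encoding espin, lowest at 4.51 ± 0.04, and Anks4b, a scaffold of the links between microvilli, differed most, with 5.22 and 4.29. Myo1a, the motor that ties the actin core to the membrane, and Cdhr5, a cadherin of microvillus tips, both picked out after their values were seen, had means of 10.17 ± 0.05 and 10.19 ± 0.06. In the same list Ush1c (6.09 ± 0.48), Calml4 (6.36 ± 0.37), Pdzk1 (5.48 ± 0.16) and Tmigd1 (4.91 ± 0.11) were not called, nor were Espn and Anks4b.

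Nutrient transporters of the same membrane were above the threshold in 5 of 12 cases (41.7%), again near the share of protein-coding genes, with a median of 5.93. Slc9a3, the sodium-proton exchanger NHE3, was highest at 8.54 ± 0.16, and Slc10a2, the ileal bile acid carrier, lowest at 4.20 ± 0.11. Slc15a1, the carrier of the small peptides that brush border peptidases release, read 5.81 and 4.47 and was the one transporter to differ by more than 2-fold after centring, with both values below the threshold. The sugar carriers of the list were looked up after the data were seen, since they take up what the disaccharidases release. Slc5a1, the sodium-glucose carrier, had 7.13 ± 0.10 and was called, though not at the 99th percentile, while Slc2a2 (4.60 ± 0.26) and the fructose carrier Slc2a5 (4.24 ± 0.11) were not.

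Transcription factors of enterocytes were above the threshold in 8 of 10 measured cases (80.0%), against 38.9% of protein-coding genes. Cdx2, the intestinal homeobox factor, had a signal of 7.42 ± 0.12 and was not called at the 99th percentile of the reference. Hnf4a and Hnf4g, nuclear receptors that drive enterocyte genes, had 9.38 ± 0.41 and 10.11 ± 0.02. The homeobox gene Isx stood at 8.45 ± 0.10, Elf3, an epithelial ETS factor, at 9.81 ± 0.27, and Klf5 and Klf4, of crypt and of differentiated cells, at 8.98 ± 0.01 and 10.86 ± 0.60. Maf, which macrophages and T cells also express, was highest at 11.75 ± 0.31. Gata4 (5.56 ± 0.14) and Gata5 (6.20 ± 0.10) were not called, and Cdx1 and Gata6 were not analysed here.

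Along the axis from crypt to villus, 7 of 9 measured villus position genes (77.8%) and 5 of 8 crypt genes (62.5%) were above the threshold. The share of protein-coding genes was 38.9%. The called villus position genes were the lectin genes Reg1, Reg3a, Reg3b and Reg3g, with Egfr, Apoa1 and Slc28a2. Reg1, listed here for the lower villus, was highest at 17.33 ± 0.42 and Apoa4, an apolipoprotein of the villus tip, lowest at 5.38 ± 0.48. Like Apoa4, Ada (5.96 ± 0.02) was not called. Which cells the Reg1 signal came from was not tested. In the crypt list Pcna was highest at 12.74 ± 0.30, the stem cell factor Ascl2 lowest at 4.67 ± 0.07, and Mki67 differed most, with 11.05 and 12.41. Pcna and Mki67 mark proliferation in any cell type. Of 5 measured genes that change between suckling and adult gut 3 were called (60.0%), Fcgrt, Prdm1 and Arg2, and 1 at the 99th percentile. The list joins genes of both stages, so its count is no measure of stage. Fcgrt, the neonatal Fc receptor, which macrophages also express, was highest at 10.44 ± 0.27 and Arg1 lowest at 5.04 ± 0.33, and Nox4 passed on the array of replicate 2 alone, with 6.84.

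**Figure D4:**
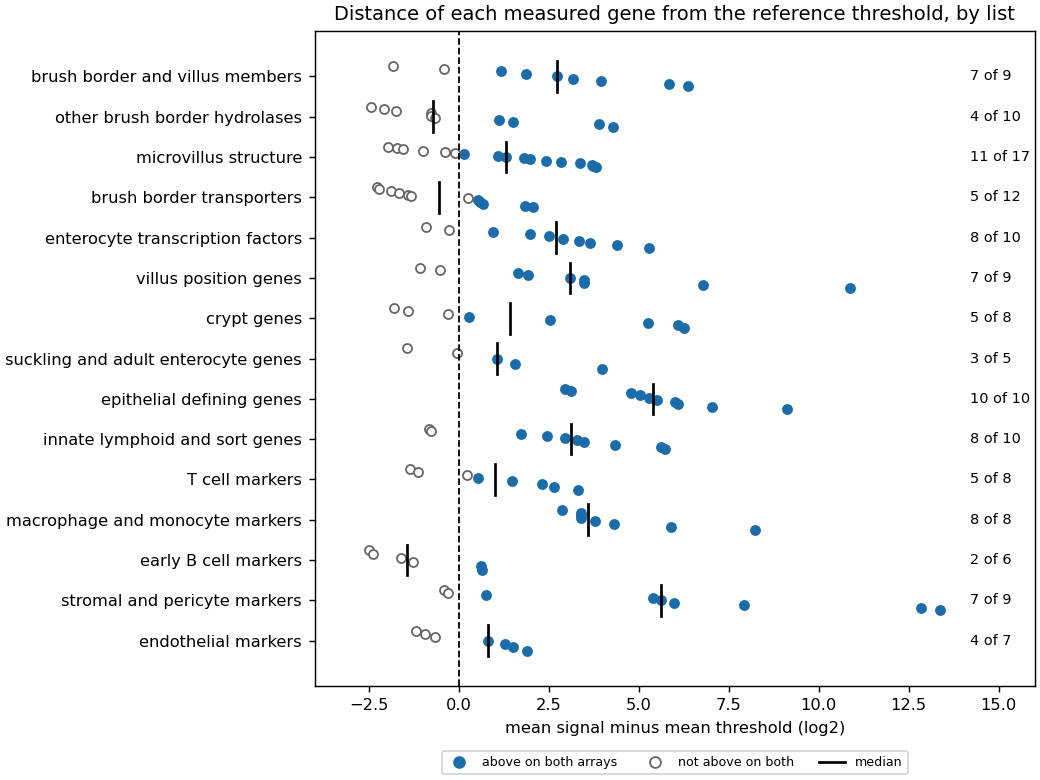
Mean log2 signal of each measured gene minus the mean threshold of both arrays, by list, with filled points for genes above the threshold on both arrays, open points for the others, a bar for the median and the counts at the right. The members lie above the threshold in 7 of 9 cases, the epithelial defining genes in 10 of 10 and the early B cell markers in 2 of 6.

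The labelled cell type and the other cells that could carry these transcripts were read on the same arrays, beside the same share of 38.9%. Of 10 innate lymphoid and sort genes 8 were called, with Il10 at 10.82 ± 0.32, Ptprc (CD45) at 12.21 ± 0.10, Id2 at 12.08 ± 0.21, Il2rb at 9.95 ± 0.16, Id3 at 9.75 ± 0.42, Sox4 at 9.42 ± 0.13, Il7r at 8.92 ± 0.56 and Rora at 8.20 ± 0.41. Thy1 (5.64 ± 0.11) and Zbtb16 (5.68 ± 0.26) were not. All 10 epithelial defining genes were called as well, with list medians of 11.85 in replicate 1 and 11.86 in replicate 2. The keratin genes Krt8, Krt19, Krt18 and Krt20 had 15.59 ± 0.24, 13.50 ± 0.29, 11.74 ± 0.17 and 9.42 ± 0.54. The adhesion and junction genes Cdh1, Epcam and Cldn7 had 12.57 ± 0.12, 11.97 ± 0.16 and 9.58 ± 0.04. Lgals4, a gut lectin, was at 11.50 on both arrays, and the fatty acid carriers Fabp1 and Fabp2 were at 12.47 ± 0.81 and 11.25 ± 0.27. Fabp1, with 13.04 and 11.90, was the one epithelial gene to differ by more than 2-fold. In bulk RNA, fewer cells of a type and less RNA per cell cannot be told apart, and a signal carries no record of the cell it came from.

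For the members that blood or stromal cells also express, the markers of those cells stood as follows, beside the 38.9% called among protein-coding genes. T cell markers, which bear on Dpp4, were called in 5 of 8 measured cases, with list medians of 7.25 and 7.71 on the arrays of replicates 1 and 2. Cd3e was highest at 9.79 ± 0.16, Cd247 lowest at 5.13 ± 0.27, and Cd4 differed most, with 7.51 and 8.38, and was lost at the 99th percentile. Macrophage and monocyte markers, which bear on Anpep, were called in 8 of 8 cases with medians of 9.93 and 10.32, from C1qc at 9.35 ± 0.19 to Lyz2 at 14.71 ± 0.07, and Adgre1 read 9.46 and 10.26. Early B cell markers, which bear on Enpep, were called in 2 of 6 cases. Those were Cd79a (6.76 and 7.41) and Cd79b (7.11 ± 0.03), which mature B cells share. Both were lost at the 99th percentile. Igll1, part of the surrogate light chain of precursor cells, was lowest at 3.98 ± 0.29, at reference level. Stromal and pericyte markers were called in 7 of 9 cases, with medians of 11.06 and 12.78. After centring, 9 of 9 were higher on the array of replicate 2, against 9121 of the 16402 protein-coding genes outside the reference. So were 6 of 8 macrophage and monocyte, 6 of 8 T cell, 5 of 7 endothelial, 3 of 6 early B cell and 6 of 10 epithelial genes. Among the members 3 of 9 were, Enpep, Treh and Anpep. Treh was at reference level, and the sign for Anpep turned without centring. Whether these directions bear on the source of any member's signal was not tested. Col3a1 read 11.06 and 13.10 and Notch3 was lowest at 6.07 ± 0.07. Dpt was saturated on each array and Dcn differed by as much as the arrays' maxima do. So 7 of the 9 stromal and pericyte markers carry a difference that the ceiling did not set. Endothelial markers were called in 4 of 7 cases, and in 1 at the 99th percentile, from Vwf at 5.28 ± 0.13 to Eng at 8.38 ± 0.48. The part of any of these cells in the members' signals was not tested.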

How the data were processed

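Affymetrix whole-transcript arrays were run on biotin-labelled cDNA amplified with a Pico kit, per the labels' protocols. The deposited log2 signal table holds 1 value per feature and array. The base, read as 2 from the range of values (2.10 to 19.86), is nowhere stated, and any fold depends on it. MAS5 appears in the submitters' processing notes without version or role. How the authors scaled the arrays or corrected background is not given in the sources used here. Features with 1 symbol (28573 of 61344) were named, 783 of them updated through Entrez identifiers in the GRCm38.p6 gene table. For 213 genes with several features the one of highest mean signal was used. The number of arrays limits precision. Array medians were 5.02 and 4.90, and across genes, which are not independent replicates, Pearson's r between the arrays was 0.986. No member was near the ceiling of the arrays.

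Thresholds, counts, SDs and differences were computed with Python 3.11.15, numpy 2.4.6 and pandas 2.3.3, and tested on simulated data. All 9 members are described. Of 14 other lists, which hold 152 genes with 129 measured, those of highest and lowest mean signal and of largest difference are named, and all genes of the epithelial, innate lymphoid and transcription factor lists, except a few that are not reported here. A few further genes of the lists are also named. Members and lists were chosen with earlier results of these data known. Genes without a feature of 1 symbol were not analysed here.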

Additional observations from a re-analysis of the deposited data

How the results depend on the processing

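Between 6 and 8 of the 9 members were called under every threshold tried. The 90th percentile of the reference (6.17 and 5.66) added Lct, giving 8, and the 99th removed Dpp4, giving 6. With 57 keratin-associated protein and Rhox genes as the reference 7 were called. Leaving out 1 array cannot lose a called gene, since the call needs both arrays. It could only add genes, and the count stayed at 7 without replicate 1 and without replicate 2. Quantile normalization keeps ranks within an array and each member has 1 feature, so the counts of 7 after it and with the median over features say nothing. Sis, Mgam, Anpep, Enpep, Alpi and Vil1 were called in each of these settings and Treh in none. Of the 129 measured genes of the other lists, 87 were called, and 93 and 68 at the 90th and 99th percentiles. By list, the counts that moved by over 1.5 times at the 99th percentile were those of the transporters (2 for 5), the suckling and adult genes (1 for 3), the early B cell markers (0 for 2), the T cell markers (3 for 5) and the endothelial markers (1 for 4). Quantile normalization moved the signal of each of the 9 members by less than its SD. The other alternatives for the signals could not fail, since each member has 1 feature and leaving out 1 of 2 arrays always moves a mean by less than the SD. Of 27 alternatives for the differences between the arrays, 24 moved by less than the SD of the gene, and the other 3 were those of Anpep. Its difference was -0.03 without centring, -0.03 centred on genes above the threshold and -0.0031 after quantile normalization. The first 2 of these settings shift every gene by the same amount. They therefore asked only whether a gene's SD exceeded that shift. No paired analysis was possible because the series holds 1 group.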
